A study of Mus musculus with 21 samples.

Results

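Open chromatin of mouse medulloblastoma was compared with that of granule neuron progenitors (GNP), the cerebellar cells from which Hedgehog-driven medulloblastoma is known to arise. The comparison held 6 of the 21 libraries of the series, chosen by their group labels: 3 tumor libraries and 3 GNP libraries. All were Omni-ATAC libraries, in which a transposase inserts sequencing adapters where DNA is accessible. The GNP came from Atoh1-EGFP cerebella at postnatal day 7 and were enriched on a Percoll gradient. Their titles carry the prefix Ptch1, and the labels give no genotype for them. The tumor cells, labelled medulloblastoma, came from cerebella of a genetically engineered mouse model and were dissociated with trypsin and DNase and strained. No age or genotype is given for them. A sort of EGFP-positive cells is described after the tumor step. In Atoh1-EGFP animals the reporter marks cells of the granule lineage, so cells without Atoh1 activity are depleted by such a sort. Stage therefore cannot be told apart from age or from the way the cells were isolated. The labels do not say whether the libraries of a group came from separate animals, so p-values measure the spread between these libraries, which may be technical.

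Granule neuron progenitors divide in the outer layer of the young cerebellum under the influence of Sonic hedgehog. The ligand binds the receptor Patched (Ptch1), which then no longer holds back Smoothened (Smo), and the GLI factors carry the signal to the nucleus. Gli1 and Gli2 mainly activate target genes, while Gli3 is processed to a repressor when the pathway is off. Atoh1, the Zic genes, Barhl1 and Pax6 mark the granule lineage, and Neurod1 accompanies its differentiation.

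The deposited data are scored peak summits, 1 list per library, and the read depth behind them is unknown. The lists held 210846, 259276 and 218361 summits in GNP and 199727, 263313 and 195450 in tumor. To compare lists of equal length, each was reduced to its 100000 highest-scoring summits on the autosomes, X and Y. These kept summits defined regions 500 bp wide, and a library occupied a region where at least 1 of its kept summits fell in it. The score at the last kept summit was 14.4 ± 6.05 in tumor and 20.1 ± 7.62 in GNP (SD, n = 3 in each), which differed by less than the spread of the libraries (exact two-sided permutation p = 0.4, where 3 against 3 cannot give less than 0.1). Between 78.4% and 79.7% of kept summits lay inside a region. The granule genes Atoh1, Barhl1, Zic1, Zic2, Pax6, Neurod1, Meis1 and Cntn2 had occupied regions in all 6 libraries. Gabra6, a receptor subunit of mature granule neurons, had none in any library. A region without a kept summit can still hold a weaker one, so a gain or loss of regions is a change of rank within the lists.

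In all, 98306 regions were occupied in at least 1 library. Of these, 45165 were occupied in all 6 libraries and 15043 in a single one. The share of regions that 2 libraries held in common (Jaccard index) averaged 0.812 within GNP, 0.748 within tumor and 0.649 between the groups. On the autosomes other than chromosome 6, 4140 regions were gained, that is occupied in all 3 tumor and no GNP library, and 4208 were lost, of 90572. Chromosome 6 behaved differently, with 529 regions gained and 120 lost of 5986. Gained regions thus made up 8.84% of the regions of chromosome 6 but between 4.02% and 5.39% of those of any other autosome, and lost regions 2.01% against 4.11% to 5.22%. No test was made for single regions, as the design allows no exact p under 0.1.

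Gained and lost regions lay near gene ends less often than all regions. On the autosomes other than 6, 4.08% of gained and 12.6% of lost regions lay within 1 kb of a gene end. This compares with 20.9% of all regions there and 31.6% of those occupied in all 6 libraries. Inside gene bodies lay 54.7% of gained and 56.3% of lost regions, against 57.4% of all and 58.3% of those in all 6. The median rank was 63422 for gained and 70850 for lost regions, against 61762 for all regions. For those in all 6 it was 31021, but these are strong by selection, since each passed the cut in every list. In the whole lists, 10.8% of gained regions had no summit in any GNP library and 9.67% of lost regions none in any tumor library, so most changed regions held a weaker summit below the 100000 mark in at least 1 library of the other group. The share of all kept summits within 1 kb of a gene end was lower in tumor, at 29.97%, 29.71% and 28.91% against 31.73%, 31.69% and 32.52% in GNP. The groups did not overlap, at the smallest p that 3 against 3 can give (exact two-sided permutation p = 0.1).

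Among the gained regions of the highest mean rank was one inside Eif4g3, a translation initiation factor gene, at chromosome 4, 138084827 to 138085326, which ranked 1667, 1204 and 4669 in the tumor lists. Another lay inside the dynamin gene Dnm1 at chromosome 2, 32342403 to 32342902, and the next 2653 bp from the calpain gene Capn9 at chromosome 8, 124621135 to 124621634. The lost regions of highest mean rank lay at chromosome 12, 5996646 to 5997145, and chromosome 7, 51307705 to 51308204, with no gene within 100 kb, and 745 bp from the Wnt receptor gene Fzd8. The region on chromosome 7 and that near Fzd8 had no summit in the whole list of any tumor library. That on chromosome 12 had one in every tumor whole list. Of the gained regions, those at Dnm1 and Capn9 had one in every GNP whole list, and that in Eif4g3 had none in 2 of them. Coordinates are given on mm10, 1-based.

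For each gene, the occupied regions in its body, or nearest to it within 100 kb, were counted. A gene with a mean of at least 3 regions over the 6 libraries was tested with limma on log2 of the count plus 1, and called at a Benjamini-Hochberg adjusted p under 0.05. Of 6616 genes tested, 364 had more occupied regions in tumor and 268 fewer, which is 9.55%. At an unadjusted p under 0.05 there were 1696. On the autosomes other than 6, 301 rose and 259 fell of 6124, or 9.14%. Chromosome 6 had 58 genes up and 4 down of 394, or 15.7%, and X and Y had 5 up and 5 down of 98, or 10.2%. Counts of a few regions can be identical in all libraries of a group, and 178 of the 632 called genes had no spread in either group. A second fit therefore held the residual SD of each gene at or above the value that 1 library differing by 1 region would give. This fit, chosen after the data were seen, called 648 genes up and 534 down, or 17.9%, and shared 468 genes with the first. It is given below as the floored adjusted p. With 1 library left out, the floored adjusted p could become smaller. For Pax3 it was then at most 1.57e-15, against 6.47e-07 with all 6 libraries. That a floored call held without a library is therefore weak support. The number of calls depends on the length of the lists and on single libraries. On the autosomes other than 6 the first fit called 9 genes with whole lists, 326 with 50000 summits per list and 329 without GNP replicate 2. With whole lists, 1 of the 68 genes chosen by the naming rule that were called (Nell1, a secreted protein gene) was still called in the same direction, 57 lost the call and 10 turned sign.

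**Figure D1:**
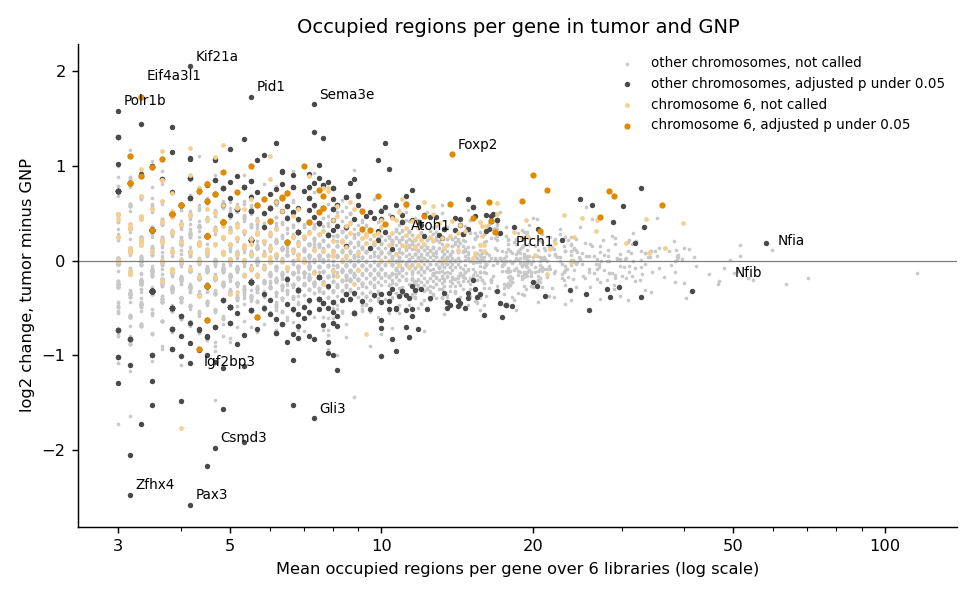
Occupied regions per gene. The x axis is the mean number of regions over the 6 libraries (log scale), the y axis the log2 change in tumor relative to GNP, and each point is 1 tested gene. Points of chromosome 6 (orange) lie mostly above 0, with 338 of 394 genes above it, while Gli3, Pax3 and Zfhx4 stand at the bottom and Kif21a at the top.

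The Hedgehog pathway list was read first. Of its 19 tested members, 2 rose (Gpr161 and Evc2), 1 fell (Gli3) and 16 did not pass the test (15.8% called against 9.55% of all genes), with a median log2 change of 0, equal to the median of all 6616 genes. The floored fit called 4 up and 2 down, and 17.9% of all genes.

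Gli3, the repressor of the pathway, had 12, 11 and 12 occupied regions in GNP and 3, 3 and 3 in tumor. The groups were far apart and the tumor counts were equal, although only 1 region was occupied in all 3 tumor libraries. The log2 change was -1.66 (SE 0.0389, adjusted p = 2.38e-05, floored adjusted p = 6.79e-09), and the call held whichever library was left out (adjusted p at most 0.000467). With whole lists the log2 change was -1.56 and not called (adjusted p = 0.149). Gli3 spans chromosome 13, 15463723 to 15730026. Of the 13 regions assigned to it, 7 were lost, 1 was occupied in all 6 libraries and none was gained. The lost ones included 3 at the start of the gene, centred 480 bp before, 166 bp after and 704 bp after it. Of the rest, 1 lay 125364 bp inside the gene, a pair 22950 and 83419 bp before it and the last 72584 bp beyond its other end. The region occupied in all 6 libraries lay 29259 bp beyond that end. The 1 Mb bin that holds Gli3, its own regions included, went from 21, 19 and 21 kept summits in GNP to 5, 4 and 4 in tumor (log2 change -2.004, adjusted p = 1.64e-07), the lowest change of any 1 Mb bin of the autosomes other than 6. The peak lists cannot tell a loss of DNA from closed chromatin, and copy number was not tested.

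The promoter of Gli3 held a kept summit in every GNP library, at positions -105, -115 and -105 relative to the start, and none in any tumor library, nor within 500 bp of the start. Its 250 bases before the start, from RefSeq on GRCm38.p6 (the mm10 assembly), are shown because this is the promoter at which the change of the leading gene sits. They lie on the plus strand at chr13:15463473-15463722.
Gli3: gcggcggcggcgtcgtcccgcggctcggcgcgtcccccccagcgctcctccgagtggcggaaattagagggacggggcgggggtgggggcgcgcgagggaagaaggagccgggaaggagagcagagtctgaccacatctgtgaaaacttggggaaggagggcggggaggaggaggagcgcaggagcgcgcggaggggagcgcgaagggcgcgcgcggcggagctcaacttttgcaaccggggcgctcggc
None of the motifs searched in promoters and listed further below was found in this window.

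Gpr161, a ciliary receptor that restrains the pathway, rose from 3, 3 and 3 regions to 5, 5 and 6 (log2 change 0.66, adjusted p = 0.00936, floored adjusted p = 0.00323). Its call held whichever library was left out. Evc2, a component of the complex at the base of the cilium through which Smoothened signals, had 1, 1 and 2 regions in GNP and 4, 5 and 5 in tumor (log2 change 1.30, adjusted p = 0.028, floored adjusted p = 4.11e-05). Without GNP replicate 1 or 2 the Evc2 call ended, with an adjusted p of up to 0.0972, and without any 1 tumor library the gene was too low to be tested. The other members moved less. Ptch1 had 19, 18 and 15 regions against 17, 18 and 21 (adjusted p = 0.643), and Gli1 had 6 in every library of both groups. Gli2 had 41, 45 and 43 against 44, 40 and 40 (adjusted p = 0.546). Sufu, an inhibitor of GLI factors, had 14, 14 and 11 against 14, 19 and 17 (adjusted p = 0.243). Smo, which lies on chromosome 6, had 4, 4 and 4 against 6, 10 and 4 (adjusted p = 0.321). A p that misses the threshold does not show that the groups are alike.

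Of 24 granule progenitor genes tested, 4 fell, among them Tlx3, Zic1 and Neurod1, none rose and 20 did not pass. The called share was 16.7% against 9.55% of all genes, with a median of -0.13 against 0 over all genes. The floored fit, which called 17.9% of all genes, called 9 down and 1 up, adding Pax6, Zic2, Insm1, Sox2 and Lhx9 and the chromosome 6 gene Ccnd2. The summed regions of the list were 321 to 329 in GNP and 279 to 294 in tumor.

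Tlx3, a homeobox gene of excitatory neurons, had 8, 9 and 6 regions in GNP and 2, 3 and 1 in tumor (log2 change -1.57, adjusted p = 0.0486, floored adjusted p = 6.71e-06). Zic1 had 14, 15 and 16 against 12, 11 and 12 (log2 change -0.34, adjusted p = 0.0418, floored adjusted p = 0.0266). Neurod1 had 9, 10 and 10 against 8, 7 and 7 (log2 change -0.36, adjusted p = 0.0486, floored adjusted p = 0.038). In these genes the groups did not overlap, which held for 22.8% of all genes tested and was required of Tlx3 by the naming rule. The Tlx3 call ended without any GNP library or without tumor replicate 1 or 3, the Zic1 call without any 1 of the 6 libraries, and the Neurod1 call without any GNP library or without tumor replicate 2 or 3, with adjusted p-values of up to 0.152, 0.135 and 0.152. Pax6, which had 32, 31 and 30 regions in GNP and 21, 22 and 27 in tumor, missed the first threshold and passed the floored one (adjusted p = 0.0863, floored adjusted p = 0.00494). Barhl1 had 10, 10 and 11 against 11, 10 and 11 (adjusted p = 0.681). Atoh1, the gene of the sorting reporter, had 9, 11 and 10 against 14, 13 and 10 (adjusted p = 0.298). It lies on chromosome 6, and relative to the mean of that chromosome its log2 change was -0.01. Mycn, a Hedgehog target that drives progenitor division, had 10, 13 and 14 against 13, 13 and 13 (adjusted p = 0.732). Ccnd1, the D-type cyclin, had 13, 14 and 14 against 14, 14 and 16 (adjusted p = 0.426), and Ccnd2 had 15, 14 and 13 against 20, 18 and 17 (adjusted p = 0.0607).

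**Figure D2:**
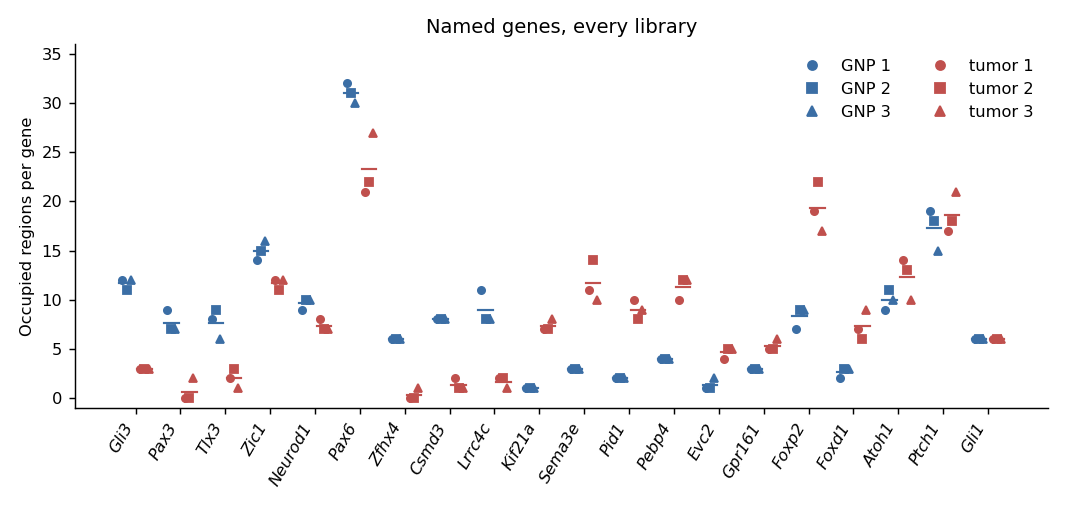
Occupied regions per gene (y axis) for 20 named genes in each of the 6 libraries, GNP in blue and tumor in red, with a bar at the mean of 3 libraries. The groups are apart for Gli3, Pax3 and Kif21a, whereas the values of Atoh1 and Ptch1 overlap and Gli1 had 6 in every library.

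None of the 4 NFI genes passed the test, against 9.55% of all genes, and their median was 0.12. These encode nuclear factor I proteins that act in granule neuron maturation. Nfia had 58, 55 and 59 regions in GNP and 55, 62 and 70 in tumor (adjusted p = 0.531), and Nfib had 46, 51 and 50 against 43, 50 and 55 (adjusted p = 1). Nfix had 30, 35 and 37 against 36, 40 and 36 (adjusted p = 0.427), and Nfic 21, 19 and 20 against 21, 21 and 24 (adjusted p = 0.292). Tumor and GNP values overlapped for Nfia, Nfib and Nfix. Of 21 genes of granule neuron differentiation 0 were called in either direction (median -0.04), while the floored fit called 1 up and 4 down. Over all genes the called shares were 9.55% in the first fit and 17.9% in the floored one. Lists this short allow no reading from a count of 0.

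Besides Gli3 and Tlx3, the 12 largest losses on the autosomes other than 6 included developmental factors and genes of neuronal surface proteins. Pax3, a paired-box factor of neural crest and dorsal neural tube, had 9, 7 and 7 regions in GNP and 0, 0 and 2 in tumor (log2 change -2.58, SE 0.501, adjusted p = 0.0486, floored adjusted p = 6.47e-07). Tumor replicate 3 was the single tumor library with any. Its call ended without any GNP library or without tumor replicate 1 or 2 (adjusted p up to 0.146) and held in the floored fit whichever library was left out. None of the 11 regions of Pax3 was occupied in all 6 libraries. The Zfhx4 gene, which encodes a large zinc-finger homeobox protein, had 6 regions in every GNP library and 0, 0 and 1 in tumor (log2 change -2.47, adjusted p = 0.0162, floored adjusted p = 6.16e-08). Dmrta1, a DM-domain factor, had 6, 7 and 6 against 2, 1 and 2 (log2 change -1.48, adjusted p = 0.0177).

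Csmd3, a large transmembrane protein gene, had 8 regions in every GNP library and 2, 1 and 1 in tumor (log2 change -1.98, adjusted p = 0.00574, floored adjusted p = 2.33e-08). Lrrc4c encodes netrin-G ligand 1, an adhesion protein of synapses, and had 11, 8 and 8 against 2, 2 and 1 (log2 change -1.92, adjusted p = 0.0126, floored adjusted p = 5.22e-08). The Csmd3 call held whichever library was left out, and the Lrrc4c call ended without GNP replicate 2 (adjusted p = 0.051). Nkain2, which encodes a partner of the sodium pump, had 5, 7 and 5 regions against 1, 0 and 1 (log2 change -2.06, adjusted p = 0.0328). Nell1, a secreted protein gene, had 11, 11 and 9 against 4, 2 and 3 (log2 change -1.53, adjusted p = 0.0222). Sugct, on the same chromosome as Gli3 and more than 1 Mb away, had 5, 5 and 7 against 1 in every tumor library (log2 change -1.72, adjusted p = 0.00255). The last of the 12, Lnx2 and Hpse2, had log2 changes of -1.53 and -1.29 (adjusted p = 0.0245 and 0.0415). The calls of Nell1 and Dmrta1 ended without any GNP library, and those of Nkain2, Lnx2 and Hpse2 without tumor replicate 3, among others (adjusted p up to 0.115). All held in the floored fit whichever library was left out, where they could be tested.

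The promoter of Lrrc4c held a summit at positions -58, -94 and -78 relative to its start in the GNP libraries. That of Eomes, a T-box factor of unipolar brush cells, held one at -46, -39 and -45. In that of Fabp7, a fatty-acid-binding protein of radial glia and Bergmann glia, they lay at -132, -120 and -129. No tumor library had a kept summit in these windows or within 500 bp of the starts. Over all its regions Eomes had 10, 9 and 11 in GNP and 3, 7 and 7 in tumor (adjusted p = 0.223, floored adjusted p = 0.00378). The windows were chosen after their values were seen, as examples of lost promoters with a summit close to the start. They show 250 bases before the start on the plus strand of GRCm38.p6, from RefSeq. Capitals mark motif matches, which are an AP-1 match (TGANTCA) in Lrrc4c and a ZIC match (CAGCAGG, here on the other strand) in Fabp7. Lrrc4c lies at chr2:96317919-96318168, Eomes at chr9:118477939-118478188 and Fabp7 at chr10:57784673-57784922.
Lrrc4c: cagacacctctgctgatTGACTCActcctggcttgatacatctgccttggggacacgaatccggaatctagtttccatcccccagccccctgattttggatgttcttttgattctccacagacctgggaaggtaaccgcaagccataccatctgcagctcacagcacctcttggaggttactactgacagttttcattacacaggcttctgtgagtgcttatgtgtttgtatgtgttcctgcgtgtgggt
Eomes: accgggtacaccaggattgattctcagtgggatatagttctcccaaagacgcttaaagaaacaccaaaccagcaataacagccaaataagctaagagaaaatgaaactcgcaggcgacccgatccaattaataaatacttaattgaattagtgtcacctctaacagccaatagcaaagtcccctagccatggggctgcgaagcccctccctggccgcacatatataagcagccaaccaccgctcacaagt
Fabp7: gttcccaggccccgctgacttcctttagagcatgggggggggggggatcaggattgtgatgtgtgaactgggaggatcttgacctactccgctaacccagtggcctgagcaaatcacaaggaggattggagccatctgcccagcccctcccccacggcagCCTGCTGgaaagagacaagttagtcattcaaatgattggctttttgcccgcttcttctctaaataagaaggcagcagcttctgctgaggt
The 3 windows differ in composition and share no match of the motifs searched.

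The largest gain was at Kif21a, a neuronal kinesin gene on chromosome 15 from 90933275 to 91050382, with 1 region in every GNP library and 7, 7 and 8 in tumor (log2 change 2.06, SE 0.0528, adjusted p = 3.63e-05, floored adjusted p = 6.79e-09). Of its 8 regions 5 were gained, 3 inside the gene and 2 beyond the body's upper end, at 5953 and 27723 bp from it. With whole lists its log2 change was 0.17 (adjusted p = 0.76), and that of Pid1 was 0.82 (adjusted p = 0.238). Pid1, a phosphotyrosine-binding adaptor gene, went from 2 regions in every GNP library to 10, 8 and 9 (log2 change 1.73, adjusted p = 0.000384, floored adjusted p = 1.42e-08). Polr1b, a subunit gene of RNA polymerase I, went from 1 to 5 in every library (log2 change 1.58, floored adjusted p = 1.17e-06). All 4 of its gained regions lay in the gene body, 7904 to 21173 bp from the lower end, while the region at that end was occupied in all 6. Pebp4 went from 4 in every GNP library to 10, 12 and 12 (log2 change 1.30, adjusted p = 0.00104, floored adjusted p = 1.91e-07). The Kif21a, Pid1 and Pebp4 calls held whichever library was left out, and that of Polr1b wherever the gene could be tested. For Polr1b this is weak support, since its counts were equal within each group and its group means did not change.

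Eif4g3 had 4, 3 and 4 regions in GNP and 11, 13 and 9 in tumor (log2 change 1.36, adjusted p = 0.0148, floored adjusted p = 5.8e-07). The 12 largest gains also held the secreted protein gene C1qtnf7 (log2 change 1.44), the endocytic adaptor Epn2 (1.41), the RNA-methylation cofactor Zc3h13 (1.30) and Slc66a2 (1.28). Their adjusted p-values were 0.0399, 0.0275, 0.028 and 0.0357. The C1qtnf7 change was 0.85 (adjusted p = 0.0986) when lists were ranked without chromosome 6 and 0.19 with whole lists, where that of Epn2 turned to -0.0965. In all of them the groups were apart, which the naming rule required. The calls of Eif4g3, C1qtnf7, Epn2, Zc3h13 and Slc66a2 each ended without at least 1 library, with an adjusted p of up to 0.122, and held in the floored fit whichever library was left out, where they could be tested.

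Of 38 axon guidance genes tested, 1 rose and 2 fell (median -0.04). This is 7.89% of the list, against 9.55% of all genes. The floored fit called 4 in each direction, and 17.9% of all genes. Sema3e, a secreted semaphorin, had 3 regions in every GNP library and 11, 14 and 10 in tumor (log2 change 1.65, SE 0.125, adjusted p = 0.00269, floored adjusted p = 1.42e-08). The call held whichever library was left out. Of its 17 regions, 15 lay in the gene body and 2 met the definition of a gain. Its megabase was also the autosomal bin, chromosome 6 aside, with the largest rise (12, 10 and 10 against 27, 23 and 20 kept summits, log2 change 1.05, adjusted p = 1.72e-05). Efnb2, a ligand of Eph receptors, fell from 11, 11 and 10 regions to 6, 5 and 4 (log2 change -0.97, adjusted p = 0.0223). Sema5a fell from 15, 17 and 16 to 12, 12 and 10 (log2 change -0.47, adjusted p = 0.0472), and its difference was absent with 50000 summits per list. Both calls ended without any GNP library.

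Of 28 synaptic adhesion genes 2 rose and 2 fell (median 0.05), or 14.3% against 9.55% of all genes. Beside Csmd3 and Lrrc4c, the contactin-associated genes Cntnap4 (9, 9 and 9 against 14, 12 and 13, log2 change 0.48, adjusted p = 0.0136) and Cntnap2 (21, 22 and 23 against 41, 35 and 32, log2 change 0.68, adjusted p = 0.0266) rose. Cntnap2 lies on chromosome 6. Relative to the mean of that chromosome it changed by 0.41 (adjusted p = 0.0313). The calls of both ended without any GNP library.

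Voltage-gated ion channel genes had 5 up and 1 down of 24, or 25% against 9.55% of all genes, with a median of 0.11. The potassium channel gene Kcnb2 (6, 5 and 6 against 10, 8 and 9), the calcium channel genes Cacna1e (13, 15 and 13 against 18, 21 and 20) and Cacna2d1 (23, 20 and 19 against 28, 32 and 35) and the sodium channel gene Scn3a (3 in every GNP library against 5 in every tumor library) rose by 0.58, 0.50, 0.59 and 0.58 on the log2 scale. The fifth, Cacna1b, had 4 regions in every GNP library and 5 in every tumor library, and its call ended in the floored fit (floored adjusted p = 0.223). Adjusted p-values were 0.0399 for Kcnb2, 0.0357 for Cacna1e, 0.0471 for Cacna2d1 and 1.1e-05 for Scn3a. The Scn3a call held whichever library was left out, but its counts were equal within each group, so this is weak support. Its change turned to -0.0196 with whole lists and -0.0606 with a score of at least 10, and that of Cacna1e to -0.107 and -0.0912. With 50000 summits that of Cacna1b turned to -0.107. The calls of Kcnb2, Cacna1e and Cacna2d1 ended without at least GNP replicate 1 or 3 (adjusted p up to 0.152).

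Forkhead genes had 6 members up and none down of 17, or 4 up of the 15 that are not on chromosome 6, with a median of 0.28, and whole lists in place of the 100000 summits turned the sign of Foxa2, Foxd1, Foxf2 and Foxj1. The 6 rises compare with 9.55% of all genes called in either direction. Foxa2, a floor-plate and midbrain factor, had 6, 5 and 5 regions in GNP and 12, 10 and 9 in tumor (log2 change 0.83, adjusted p = 0.0268, floored adjusted p = 0.000107). Foxd1, a factor of mesenchyme and ventral forebrain, had 2, 3 and 3 against 7, 6 and 9 (log2 change 1.18, adjusted p = 0.0319, floored adjusted p = 2.47e-05), with 2 gained regions inside its body and 1 at 35037 bp beyond it. Foxf2 had 4, 3 and 4 against 8, 6 and 7 (log2 change 0.78, adjusted p = 0.0401). Foxj1, a regulator of motile cilia, had 3 in every GNP library and 4 in every tumor library and was not called in the floored fit (floored adjusted p = 0.168). The Foxa2, Foxd1 and Foxf2 calls ended without any GNP library (adjusted p up to 0.108). Foxp2 and Foxp1 are given with chromosome 6. Of 6 Pax genes, 1 fell (Pax3) and none rose, or 16.7% called against 9.55% of all genes, with a median of -0.37. The floored fit, which called 17.9% of all genes, added Pax6 and Pax7 to the losses.

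Growth and signalling lists were read next. Of 14 tested cell cycle genes, 2 rose (median 0), or 14.3% against 9.55% of all genes. Cdk6, a G1 kinase, had 12, 11 and 12 regions against 15, 18 and 16 (log2 change 0.45, adjusted p = 0.0369), and Mcm5, a replication helicase subunit, 4 in every GNP library against 5 in every tumor library, a call that ended in the floored fit (floored adjusted p = 0.223). Of 18 tumour suppressor genes, 1 rose (median 0.07), or 5.56%. It was the cyclin-dependent kinase inhibitor Cdkn1a, with 2, 2 and 3 regions against 4, 5 and 5 (log2 change 0.77, adjusted p = 0.05 before rounding just under the threshold, floored adjusted p = 0.00239). With whole lists and with a score of at least 10, the change of Cdkn1a turned to -0.347 and -0.121 and that of Mcm5 to -0.356 and -0.138. The Cdk6 call ended without any GNP library and the Cdkn1a call without any tumor library.

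BMP and TGF-beta genes had 0 up and 2 down of 20 (median -0.11), or 10% against 9.55% of all genes. Smad7, an inhibitor of that pathway, fell from 14, 15 and 13 regions to 9 in every tumor library (log2 change -0.58, adjusted p = 0.00574), a call that held whichever library was left out. The receptor gene Bmpr1b fell from 10, 9 and 10 to 7, 6 and 6 (log2 change -0.54, adjusted p = 0.0214), and its call ended without GNP replicate 1 or 3 or tumor replicate 2 or 3 (adjusted p up to 0.081). The AP-1 and immediate early genes had 2 up and 1 down of 15 (median 0.09), or 20% against 9.55% of all genes. Jun rose from 11, 13 and 12 to 17, 17 and 16 (log2 change 0.44, adjusted p = 0.0266), although the log2 change was -0.21 when regions outside gene bodies were left out. Arc fell from 6 in every GNP library to 4 in every tumor library (log2 change -0.49, floored adjusted p = 0.0159), and Egr1 went from 5 to 6, a call that ended in the floored fit (floored adjusted p = 0.279). The Jun call ended without GNP replicate 3 or any tumor library (adjusted p up to 0.0909). None of 15 Notch genes (median 0.11), 26 Wnt genes (median -0.01) or 20 chromatin regulators (median 0.03) was called, against 0, 4 and 3 in the floored fit. Of all genes, 9.55% were called in the first fit and 17.9% in the floored one.

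**Figure D3:**
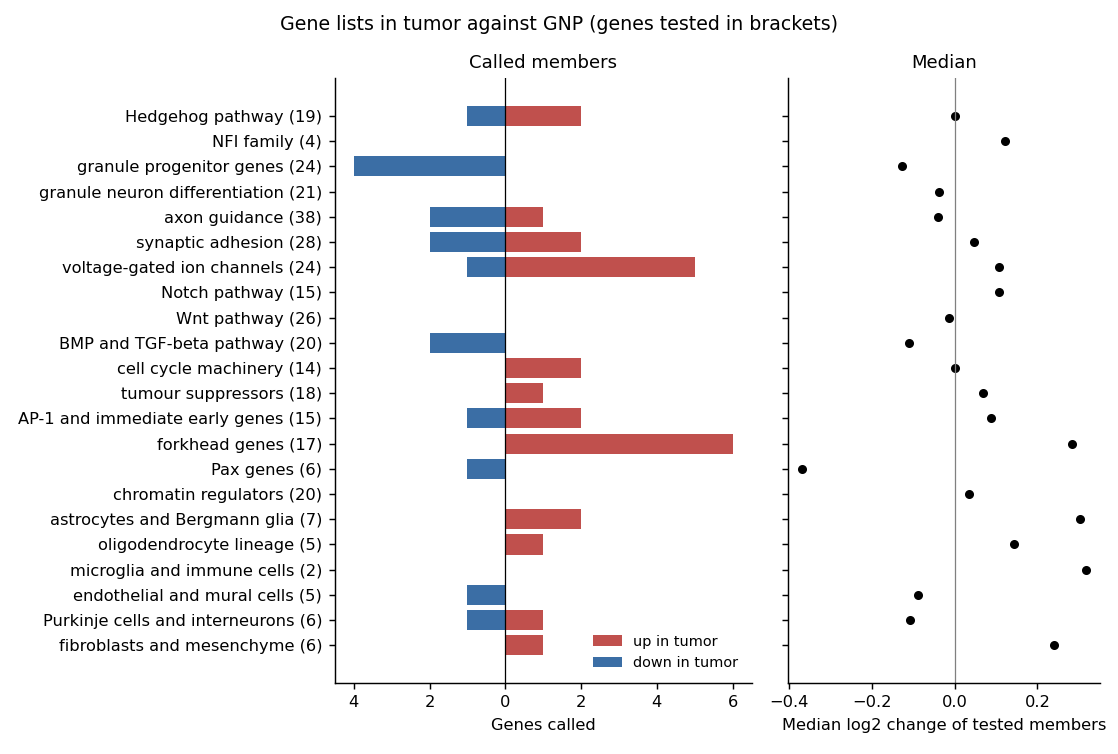
Gene lists in tumor against GNP. Left, the number of called genes per list, up to the right and down to the left, with the number tested in brackets. Right, the median log2 change of the tested members. Forkhead genes had 6 calls, all up, and granule progenitor genes 4, all down.

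Markers of other cell types were read in the same way, since cells other than those of the granule lineage may remain after a sort. Astrocyte and Bergmann glia genes had 2 up and 0 down of 7 (median 0.30), or 28.6% against 9.55% of all genes called. In the lists that follow, the called shares were 20% for oligodendrocyte, 16.7% for fibroblast and 0% for microglia genes. They were 20% for endothelial and 33.3% for Purkinje cell and interneuron genes. These shares rest on at most 2 called genes each. Hopx turned to -0.0458 with whole lists and Slc1a3 to -0.0247 with a score of at least 10. Slc1a3, the glial glutamate transporter, had 15, 13 and 15 regions against 18, 19 and 18 (log2 change 0.34, adjusted p = 0.0486), and Hopx 5, 5 and 4 against 7 in every tumor library (log2 change 0.50, adjusted p = 0.0328). The summed regions of that list ranged from 57 to 59 in GNP and 65 to 69 in tumor, and S100b was at 0 in all 6 libraries. Fabp7, also of that list, was not among the calls. Its promoter window went the other way, with a kept summit in every GNP library and in no tumor library. Oligodendrocyte lineage genes had 1 up of 5 (median 0.14), Olig1 with 7, 6 and 6 against 9, 10 and 10 (log2 change 0.54, adjusted p = 0.0214), and sums of 50 to 54 against 59 to 62. Fibroblast and mesenchyme genes had 1 up of 6 (Foxd1, median 0.24), with sums of 26 to 28 against 36 to 38. Of 2 tested microglia and immune genes none was called by limma in the first fit and 1 (Ptprc) in the floored one, which called 17.9% of all genes. Itgam, Cd68 and Csf1r were at 0 in all libraries, and the sums were 13 to 14 against 14 to 16. Endothelial and mural genes had 1 down of 5 (Cdh5, 13, 12 and 12 against 10, 10 and 9, adjusted p = 0.037, median -0.09), with sums of 37 to 40 against 33 to 36. With 50000 summits the Cdh5 log2 change was 0.34. Among 6 genes of Purkinje cells and interneurons, Foxp2 rose and Gad1, the GABA-synthesizing enzyme, fell from 6, 6 and 5 to 3 in every tumor library (log2 change -0.73, adjusted p = 0.00643, median of the list -0.11), with sums of 50 to 54 against 55 to 70 and Pcp2 at 0 throughout. The part of such cells in the results above was not tested. The calls of Slc1a3, Hopx, Olig1, Cdh5 and Foxd1 ended without at least 1 library, and that of Gad1 held whichever was left out.

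Chromosome 6 was taken apart from the other autosomes because its share of the kept summits moved as a whole. It held 5.20%, 5.12% and 5.06% of the kept summits in GNP and 7.17%, 6.93% and 6.02% in tumor. All tumor libraries lay above all GNP libraries, and tumor replicate 3 lay closest to them. The means were 6.70% ± 0.608 and 5.13% ± 0.0692 (SD, n = 3 in each), a ratio of 1.31 at the smallest p the design allows (exact two-sided permutation p = 0.1). In the whole lists the shares were 7.88%, 6.74% and 6.06% in tumor against 5.11% to 5.17% in GNP. None of the 18 other autosomes moved as far, their log2 ratios ranging from -0.09 to 0.01 against 0.39. Of these, chromosomes 11, 17 and 19 had groups that did not overlap, each lower in tumor. When chromosome 6 was left out of the total, chromosomes 17 and 19 still did so, and 1 other autosome was apart in the opposite direction (log2 ratio 0.0184).

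**Figure D4:**
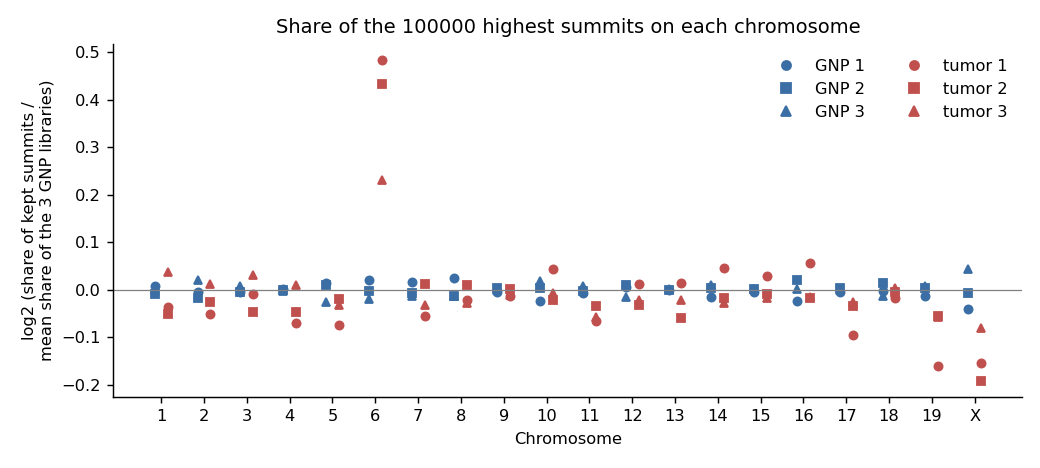
Share of the kept summits on each chromosome (x axis), as the log2 ratio to the mean of the 3 GNP libraries (y axis), 1 point per library. On chromosome 6 the tumor libraries stand above all others, with tumor replicate 3 (6.02% of kept summits) nearer to GNP than replicates 1 and 2 (7.17% and 6.93%).

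Regions open in both groups moved the same way. Among the 45165 regions occupied in all 6 libraries, ranked anew within each library, the 2609 on chromosome 6 had a median rank percentile of 57.1, 56.8 and 58.1 in GNP and 38.6, 38.0 and 46.3 in tumor, where a lower percentile means a stronger summit. The pooled regions of the other autosomes had a median between 49.4 and 50.6 in every library. They were 41762 of the 45165 ranked regions, so their median lay near the middle by construction. It gives no contrast to chromosome 6, and no other autosome was ranked singly. On chromosome X the medians were 56.8, 56.6 and 54.5 in GNP and 53.9, 62.4 and 57.5 in tumor (exact two-sided permutation p = 0.5). The rank percentile uses only regions present in all 6 lists. On chromosome 6 the groups did not overlap (exact two-sided permutation p = 0.1), and again tumor replicate 3 lay between GNP and the other tumors.

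**Figure D5:**
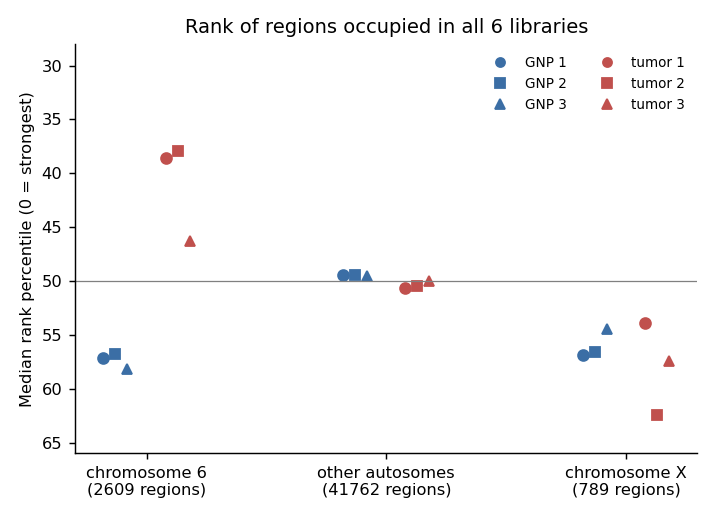
Median rank percentile (y axis, 0 is the strongest, drawn upwards) of regions occupied in all 6 libraries, by library, for chromosome 6, the other autosomes and chromosome X. On chromosome 6 the tumor libraries lie at 38.0 to 46.3 and the GNP libraries at 56.8 to 58.1.

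The rise ran along the whole chromosome. Of 119 tested 1 Mb bins of chromosome 6, 89 rose and 0 fell, or 74.8%, against 186 up and 233 down of 1792, or 23.4%, on the other autosomes. On X and Y, 2 bins rose and 12 fell of 61, or 23%. In chromosome 6, 117 of 119 bins had a change above 0, with a median of 0.37. By tumor library the median was 0.51, 0.45 and 0.23 above the GNP mean. In windows of 15 Mb the medians ranged from 0.38 to 0.77 in tumor replicate 1, from 0.36 to 0.74 in replicate 2 and from 0.09 to 0.48 in replicate 3, so no window was at or below the GNP mean in any tumor library. The bins with the largest rises held Lmo3, a LIM-only factor gene (7, 4 and 4 kept summits against 18, 14 and 16, log2 change 1.53, adjusted p = 1.72e-05), Foxp2 (7, 10 and 10 against 29, 28 and 22, log2 change 1.46) and Foxp1 (9, 7 and 7 against 23, 21 and 20, log2 change 1.37). More copies of the chromosome and more open chromatin on it cannot be told apart in peak lists, and copy number was not tested. The genes below are given also relative to the mean of the chromosome 6 genes.

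Single genes stood above that level. Over all 394 tested genes of chromosome 6 the median log2 change was 0.25. Foxp2, a forkhead factor of Purkinje cells, had 7, 9 and 9 regions in GNP and 19, 22 and 17 in tumor (log2 change 1.12, SE 0.139, adjusted p = 0.0153, floored adjusted p = 5.8e-07). Relative to its chromosome the change was 0.85 (adjusted p = 0.0148). Of its 23 regions 7 were gained and 6 were occupied in all 6 libraries, among the latter 3 around the end of the gene nearest the chromosome's start. The gained ones lay 284239 to 384709 bp inside the gene, with 1 exception 3096 bp before it. Without GNP replicate 2 or tumor replicate 1 the Foxp2 call ended (adjusted p up to 0.0541). Foxp1, its paralog, had 23, 22 and 23 against 31, 35 and 29 (log2 change 0.46, adjusted p = 0.0328), and relative to its chromosome the change was 0.19 and no longer called (adjusted p = 0.097). Its first call also ended without any GNP library or tumor replicate 1 (adjusted p up to 0.108).

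Among the other leading gains of the chromosome, Eif4a3l1 went from 1 region in every GNP library to 5, 6 and 6 (log2 change 1.73, adjusted p = 0.000245) and Eva1a, an autophagy gene, from 2 to 6, 5 and 5 (1.07, adjusted p = 0.00153). None of the 9 regions assigned to Eif4a3l1 lay in its body, and its 3 gained ones lay 2791, 28655 and 34784 bp from it. Slc25a13, a mitochondrial aspartate-glutamate carrier gene, went from 4, 5 and 4 to 10, 10 and 9 (1.00, adjusted p = 0.00599). D6Ertd527e and Iqsec3 rose by 1.11 and 1.00. All 5 were still called relative to their chromosome, with changes of 1.46, 0.80, 0.73, 0.83 and 0.73. The calls of Eva1a and Slc25a13 held whichever library was left out, that of Eif4a3l1 wherever it could be tested, and those of D6Ertd527e and Iqsec3 ended without GNP replicate 2 or tumor replicate 2, among others (adjusted p up to 0.0972).

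The chromosome also held losses. Igf2bp3, an RNA-binding protein gene active in fetal tissue, fell from 7, 6 and 5 regions to 2, 3 and 3 (log2 change -0.94, adjusted p = 0.041), and Nfe2l3, a basic leucine zipper factor gene, from 7 in every GNP library to 4, 5 and 4 (log2 change -0.59, adjusted p = 0.0222). Relative to the chromosome these were -1.21 and -0.86. The potassium channel gene Kcna6 fell from 5, 6 and 6 to 3, 4 and 3 (log2 change -0.63, adjusted p = 0.0486). With values centred on each chromosome, 28 genes of chromosome 6 were up and 41 down. The calls of Igf2bp3, Nfe2l3 and Kcna6 ended without any GNP library or tumor replicate 1, among others (adjusted p up to 0.152), and held in the floored fit whichever library was left out.

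Of the chromosome 6 regions, the gained ones of highest mean rank lay inside Vwf, the von Willebrand factor gene, at chromosome 6, 125597834 to 125598333, and 14754 bp from Hpgds, a prostaglandin D synthase gene, at 65159486 to 65159985. The first ranked 4463, 1540 and 3266 in the tumor lists. Both had a summit in the whole lists of all 3 GNP libraries, which lay below the 100000 mark.

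Chromosome X held 1.73%, 1.77% and 1.84% of the kept summits in GNP and 1.60%, 1.56% and 1.69% in tumor, with no overlap (exact two-sided permutation p = 0.1). The sex of the animals is not in the labels. Atp6ap2, a proton pump subunit gene, fell from 5, 5 and 4 regions to 3 in every tumor library (log2 change -0.50, adjusted p = 0.0328). Gria3, a glutamate receptor gene, rose from 4, 3 and 4 to 7, 8 and 7 (log2 change 0.84, adjusted p = 0.0205), and the protocadherin gene Pcdh19 from 4 in every GNP library to 5, 6 and 6 (log2 change 0.41, adjusted p = 0.0357). The Gria3, Pcdh19 and Atp6ap2 calls ended without at least GNP replicate 1 or tumor replicate 2 or 3 (adjusted p up to 0.114).

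Among 1 Mb bins of the other autosomes, those with the largest rises held Sema3e, Cacna2d1, Dgkb, Arid5b and Zbtb20, each with at least 2 changed regions. A sixth, on chromosome 3 from 17000000 to 17999999, held no such gene. At Zbtb20, a zinc-finger gene, the bin went from 35, 33 and 34 kept summits to 55, 56 and 69 (log2 change 0.79, adjusted p = 2.3e-06). At Cacna2d1 it went from 11, 9 and 10 to 18, 22 and 25 (log2 change 1.03, adjusted p = 3.38e-05). The bin that holds Arid5b went from 12, 13 and 10 to 19, 26 and 20, and that of Dgkb from 9, 10 and 11 to 27, 17 and 15. After the bin of Gli3, the deepest loss was at Fzd8, from 16, 18 and 18 summits to 5, 6 and 6 (log2 change -1.46, adjusted p = 2.64e-06). In each of these bins the groups did not overlap, which held for 631 of all 1792 tested bins of the other autosomes.

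Promoters, taken as 250 bases before to 50 bases after a start in RefSeq, changed more often by loss than by gain. Of 32851 windows 277 held a kept summit in all 3 GNP and no tumor library and 100 the reverse, while 10016 were occupied in all 6. When windows with a summit of the other group within 500 bp of the start were set aside, 190 lost and 43 gained windows remained, of which 149 and 19 belonged to protein-coding genes. In chromosome 6 the balance was 10 gained and 8 lost of 1865 windows, against 88 gained and 252 lost of 29531 on the other autosomes. The promoter table matched 17492 of the 21887 annotated genes.

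The 250 bases before the start were searched on both strands for the E-box CAGCTG, the single NFI site TTGGCA, the full NFI palindrome, the AP-1 site TGANTCA, the GLI site TGGGTGGTC, the RFX site GTTGCCA and the ZIC site CAGCAGG. The NFI site on 1 strand and the RFX site on the other can overlap. The E-box was in 18.1% of lost and 8% of gained windows, against 12.01% of windows occupied in all 6 libraries and 13% of all 32851. The NFI site was in 22% of gained and 11.9% of lost windows, against 9.43% of those in all 6 and 12.3% of all. The ZIC site was in 14.4% of lost and 12% of gained windows, against 7.97% and 8.44%. AP-1, GLI, the NFI palindrome and RFX were in 5%, 0%, 0% and 6% of gained and 4.69%, 0.361%, 0% and 3.25% of lost windows, against 6.75%, 0.225%, 0.0365% and 3.66% of all. Windows also differed in base composition, with a mean of 55.3% G and C in gained, 59.1% in lost and 62.0% in shared windows, against 53.2% in all. These shares are descriptions and were not tested.

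To show gained promoters as well, those of Calr4, a calreticulin gene of the endoplasmic reticulum, and Emp1, a membrane protein gene on chromosome 6, are given, chosen after their values were seen. At Calr4 the tumor summits lay at positions -105, -107 and -91 relative to the start and at Emp1 at -123, -132 and -122, and no GNP library had a kept summit within 500 bp of either start. Both windows are on the plus strand of GRCm38.p6, from RefSeq, at chr4:109235012-109235261 and chr6:135362681-135362930. Capitals mark matches of the NFI site (here as its complement) in both and of the AP-1 site in Emp1.
Calr4: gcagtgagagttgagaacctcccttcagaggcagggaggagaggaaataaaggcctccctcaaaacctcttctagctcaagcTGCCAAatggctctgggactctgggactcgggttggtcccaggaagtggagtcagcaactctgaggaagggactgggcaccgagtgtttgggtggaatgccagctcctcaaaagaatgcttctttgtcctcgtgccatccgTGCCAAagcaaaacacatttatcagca
Emp1: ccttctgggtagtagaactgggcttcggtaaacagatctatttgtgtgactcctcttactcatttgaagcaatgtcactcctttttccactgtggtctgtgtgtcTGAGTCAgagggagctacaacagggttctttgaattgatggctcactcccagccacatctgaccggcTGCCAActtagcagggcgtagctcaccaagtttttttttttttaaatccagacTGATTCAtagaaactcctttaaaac
In Calr4 the NFI sites began at positions -168 and -27, and in Emp1 at -78, with AP-1 matches at -145 and -25. Over all its regions Emp1 had 10, 11 and 10 in GNP and 11, 12 and 12 in tumor (adjusted p = 0.151).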

How the data were processed

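The deposited files held MACS2 peak summits, 1 list per library, with reads aligned by Bowtie2 to mm10 and handled with Picard, per the submitters' processing notes. Versions and call thresholds are not given in the sources used here. The authors' score per summit is a −log10 significance value, and whether of p or q is not stated. Read depth is unknown, so no counting interval is given.

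From each list the 100000 highest-scoring summits were kept and merged greedily by rank into 500 bp regions. A region was assigned to the protein-coding gene body holding its centre (the smallest where several did), or else to the nearest gene within 100 kb, among 21887 genes of RefSeq on GRCm38.p6, which gave 90.1% of regions a gene. The gene table held no exons, so a region is placed only in or outside a gene body. Genes with a mean of at least 3 regions were tested on log2(regions + 1) and 1 Mb bins with a mean of at least 10 kept summits on log2(summits + 1), with limma 3.58.1 in R 4.3.3 (trended empirical Bayes, Benjamini-Hochberg adjustment over all genes or bins). Fold changes on this scale understate the change of low counts. The scripts used Python 3.11.15, numpy 2.4.6, pandas 2.3.3 and scipy 1.17.1, and the gene fit was tested on simulated data. The bin fit was not tested on simulated data. Single values were compared with exact two-sided permutation tests. The prior degrees of freedom of the gene fit were 0.625, and 20.4 with the 1-region floor, which raised 811 genes.

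Genes were named by a rule: on the autosomes other than 6 the 12 largest changes in each direction among called genes with groups that did not overlap, on chromosome 6 the 6 largest up and 3 down, on X and Y 2 up and 2 down, every called member of a gene list, and a set of Hedgehog, granule lineage and NFI genes whether called or not. Some genes that the rule names are not reported here. The members and gene lists were chosen with earlier results of these data known. The motif search, planned on regions, was done on promoter windows, and the sequence of other regions was not analysed here. Alternatives covered list length, score minimum, libraries in the fit, filters, pseudocount, region width, assignment, direct summit counts, centring per chromosome, the replicate number as a block and each library left out.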

Additional observations from a re-analysis of the deposited data

Results flagged for a closer look

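Outside the comparison, the untreated libraries labelled VDR held a larger share of chromosome 6 among their kept summits than any tumor or GNP library. The shares were 8.84%, 10.2% and 8.2% in the 3 libraries, above the 5.06% to 5.20% of GNP. Their score at the last kept summit was 3.76 to 3.97, below that of any of the 6 libraries compared.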

How the results depend on the processing

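Genes called on the autosomes other than 6 numbered 560, against 326 with 50000 summits (61 in common), 9 with whole lists, 58 with a score of at least 10, 84 in a fit of 12 libraries with hyperplasia and VDR, 876 with a mean of at least 1 region, 343 with at least 6, 361 with gene bodies only and 1041 with the 1-region floor. On chromosome 6 the 62 calls (58 up, 4 down) became 67 with 50000 summits, 2 with whole lists, 0 with a score of at least 10 (limma), 20 with 12 libraries, 34 with gene bodies and 127 with the floor, and 69 (28 up, 41 down) when centred per chromosome. On X and Y the 10 calls became 2 with 50000 summits, 0 with whole lists, 0 with the score minimum, 5 with 9 libraries, 0 with 12, 21 with a mean of at least 1, 4 with at least 6, 5 with 1000 bp regions and 5 with gene bodies. Some settings kept the number of calls but not the genes. On the autosomes other than 6, summits counted directly gave 558 calls, of which 218 were shared with the main fit in the same direction. Lists ranked without chromosome 6 gave 568, of which 345 were so shared. The causes were not tested.

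Leaving out 1 library gave 329 to 530, 28 to 64 and 4 to 8 genes in these 3 parts, the lowest of the first and second without GNP replicate 2. Bins called on the other autosomes (419) became 278 with 50000 summits, 56 with whole lists and 178 to 359 without 1 library, and those of chromosome 6 (89) became 71, 38 and 64 to 96. Regions gained (4140) became 2651 with 50000 summits, 4249 with whole lists, 2476 with the score minimum and 4716 to 5828 without 1 library, and regions lost (4208) became 2389, 6539, 5145 and 4942 to 5668. The chromosome 6 difference of 1.58 percentage points became 2.19 with 50000 summits, 1.75 with whole lists and 1.35 to 1.92 without 1 library. The gene end difference of -2.45 points became -3.27, -0.976 and -2.67 to -2.14.

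The labels do not say whether replicate numbers pair the libraries. Same-numbered deviations correlated at 0.0156, 0.00625 and -0.0129, and differently numbered ones at -0.0329 to 0.0281. Correlations this weak, from 3 libraries per group, cannot settle whether a pairing exists. With the replicate block 294, 32 and 4 genes were called in the 3 parts, and 435 and 94 bins.

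Some named genes turned sign. With 50000 summits the log2 changes were -0.107 for Cacna1b, Egr1 and Foxa2, -0.031 for Foxj1, 0.341 for Cdh5 and 0.00972 for Sema5a. With whole lists they were -0.107 for Cacna1e, -0.347 for Cdkn1a, -0.0965 for Epn2, -0.0439 for Foxa2, -0.0337 for Foxd1, -0.0678 for Foxf2, -0.121 for Foxj1, -0.0458 for Hopx, -0.356 for Mcm5 and -0.0196 for Scn3a. With the score minimum they were -0.0912 for Cacna1e, -0.121 for Cdkn1a, -0.138 for Mcm5, -0.031 for Pcdh19, -0.0606 for Scn3a and -0.0247 for Slc1a3. With gene bodies alone that of Jun was -0.215. Of the 68 called genes chosen by the naming rule, whole lists left 1 called in the same direction, and 57 lost the call and 10 turned sign. Ranked without chromosome 6, 37 of the 57 that were tested were still called and 20 were not, among them Pax3 (adjusted p = 0.0674). With summits counted directly, 37 of the 68 were still called and 31 were not. The unknown read depth limits every statement about weak summits.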
